A study of Mus musculus with 4 samples.

Results

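Genes for voltage-gated sodium channels, voltage-gated calcium channels, hyperpolarization-activated HCN channels, ClC chloride channels and exchangers, and Trp cation channels were compared between young neurons and neural progenitor cells (NPCs) sorted from mouse cortex on embryonic day 15.5. The genes were chosen by symbol. They were every row of the count table that starts with Cacn or Clcn, that is Scn, Hcn, Trpc, Trpm or Trpv followed by a digit, or that is Nalcn. The rule found 76 of 23240 rows, of which 63 had enough counts to be tested and 13 did not. One of the 76, Trpc4ap, encodes a protein that binds a Trp channel and is no channel itself.

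The embryos came from heterozygous Nestin-GFP mice crossed with homozygous DCX-mRFP mice, and embryos that carried both reporters were used. Neurons were cells sorted with both colours, and NPCs were cells sorted with green fluorescence alone, so the controls carried both transgenes too. Each group held 2 RNA-seq libraries of total RNA. Nestin regulatory sequences are also known to be active in cells of growing blood vessels, so the green gate alone does not restrict a sort to neural progenitors. Whether the duplicates of a group came from different litters is not given in the labels. The p-values therefore rest on the scatter among these 4 libraries alone, and that scatter may be technical.

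Voltage-gated sodium channels open when a membrane is depolarized and carry the upstroke of the action potential. Their pore is formed by a large alpha subunit, beside which smaller beta subunits act as modulators and adhesion molecules. Calcium channels are built around an alpha1 pore subunit with a cytoplasmic beta subunit and an extracellular alpha2-delta subunit, and the calcium they admit drives transmitter release and gene expression. HCN channels open on hyperpolarization. ClC proteins are either chloride channels of the surface membrane or chloride-proton exchangers of endosomes and lysosomes. Trp channels are cation channels gated by lipids, calcium, heat and other signals, and many act outside the nervous system.

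The 4 libraries held 52611841 to 55615151 rounded counts. In neurons, 10 of 10 markers of young projection neurons were higher and 8 of 8 markers of radial glia were lower. Every listed marker of intermediate progenitors, such as Eomes and Neurog2, was lower in neurons too. Markers of other cells also moved. All 12 endothelial markers were lower in neurons, with summed levels of 10.3 to 10.6 CPM (counts scaled to a common library size) in neurons and 294 to 302 CPM in NPCs. All 8 tested markers of pericytes and mural cells were lower in neurons, at 8.06 to 8.52 CPM summed over 10 genes, against 228 to 233 CPM in NPCs. Of 8 markers of oligodendrocyte precursors, 7 were lower in neurons, and the sum was 53.6 to 56.7 CPM in neurons and 223 to 229 CPM in NPCs. Most of the neuron sum came from Cspg5, the marker that did not pass. Cspg5 had 51.6 and 48.2 CPM in neurons and 47.8 and 51.6 CPM in NPCs. All 9 microglia markers and all 7 erythroid markers were lower in neurons too. No marker of these 5 lists was at 0 in any library. Of 5 tested Cajal-Retzius markers, 4 were higher in neurons and 1 was lower, with sums over 6 genes of 161 to 166 CPM in neurons and 43.9 to 44.0 CPM in NPCs. Of 10 interneuron markers, 4 were higher and 4 lower in neurons, with sums of 196 to 207 CPM in neurons and 189 to 196 CPM in NPCs. Young neuron markers were also high in NPC libraries. Tubb3 had 3762 and 3842 CPM in neurons and 983 and 971 CPM in NPCs. Neurod6 had 2466 and 2386 CPM in neurons and 683 and 680 CPM in NPCs. The reporter gene Dcx had 1358 and 1441 CPM in neurons and 468 and 493 CPM in NPCs. Eomes, of intermediate progenitors, had 139 and 144 CPM in neurons and 613 and 616 CPM in NPCs. The part of all these cells in the channel gene levels, shares and changes was not tested.

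Across the 63 channel genes tested, 40 were higher in neurons, 14 were lower in neurons and 9 did not pass an adjusted p of 0.05 (edgeR quasi-likelihood test, Benjamini-Hochberg adjustment over all 15292 genes tested). Their median log2 change was 0.96, where all genes tested had a median of -0.02. The background of calls in this comparison was high, at 72.6% of all genes tested, with 35.8% called higher and 36.9% called lower in neurons. Calls of at least 2-fold were 30 higher and 9 lower among the channel genes, beside 11.5% higher and 18.5% lower among all genes. Both neuron libraries lay above both NPC libraries for 42 of the 63 genes and below them for 18, beside 41.9% and 44.0% of all genes (86.0% in either direction). Levels are given for each library as CPM with TMM scaling. A log2 change is positive where neurons were higher, and the value after ± is its standard error. A lower level in these bulk libraries can come from fewer cells of a type or from less RNA per cell, and these cannot be told apart.

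Rare and abundant genes were also counted apart. Of the 31 channel genes that averaged 5 CPM or more, 24 were higher in neurons, 4 were lower and 3 did not pass, beside 41.5% higher and 34.1% lower (75.5% called) of all genes at that level. The 32 tested genes under 5 CPM held 16 higher, 10 lower and 6 not called, beside 21.1% higher and 44.1% lower (65.3% called) of all genes under that level. The median standard error of the log2 change was 0.085 for the more abundant genes and 0.27 for the others. Small changes of rare channels could therefore be missed. The direction of calls over all genes depended on the scaling. With library size as the only scaling, the median of all genes moved to -0.23 and 33.5% of calls were higher in neurons, in place of 49.2%, while the channel genes held 36 higher and 19 lower.

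**Figure D1:**
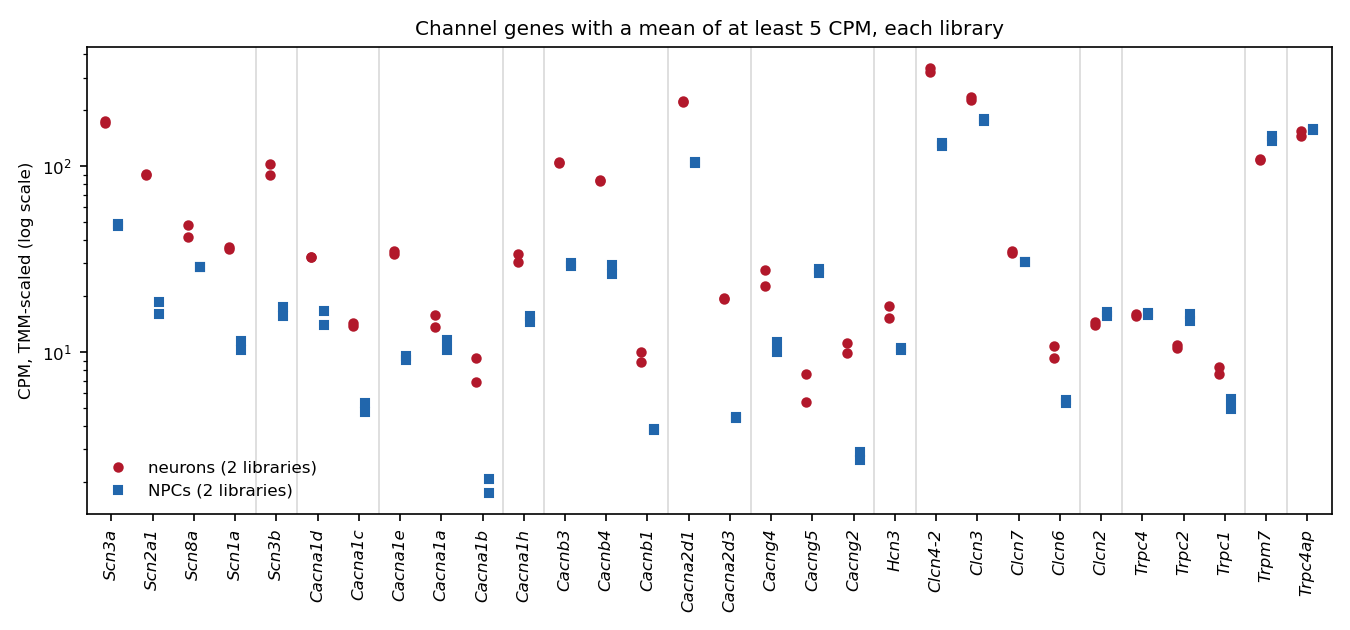
Level in each library of the channel genes reported here that averaged 5 CPM or more (vertical axis, CPM on a log scale; red circles are the 2 neuron libraries and blue squares the 2 NPC libraries; grey lines separate the roles). Sodium and calcium channel genes mostly have neurons above NPCs, and Cacng5, Trpc2 and Trpm7 have neurons below. Clcn2 and Trpc4ap also have neurons below but did not pass the adjusted p.

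**Figure D2:**
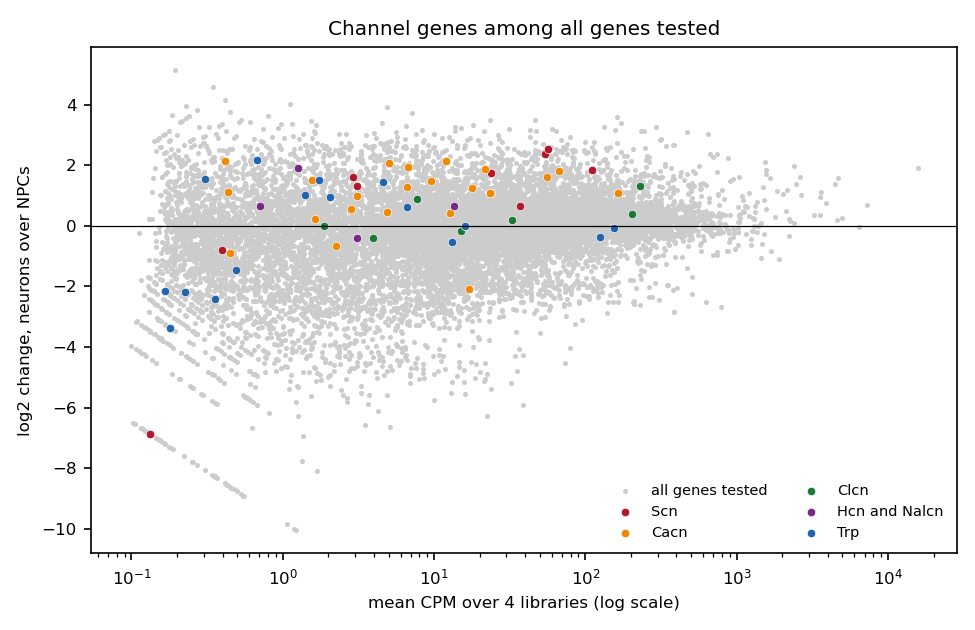
Log2 change of neurons over NPCs (vertical axis) against mean CPM over 4 libraries (horizontal axis, log scale) for all 15292 genes tested in grey, with channel genes reported here coloured by symbol. Channel genes at 5 CPM or more lie mostly above 0, and the coloured points below -2 are Cacng5 and rare genes such as Scn7a and Trpm5.

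Sodium channel alpha subunits were tested in 8 of 10 genes. Scn3a, Scn2a1, Scn1a, Scn9a and Scn8a were higher in neurons, Scn7a was lower, and Scn11a did not pass. The median log2 change was 1.14, against -0.02 for all genes tested. The summed level of the family was 344 and 355 CPM in neurons and 107 and 113 CPM in NPCs. Scn4a was at 0 counts in all libraries and Scn10a had 1 count in total.

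Scn3a, the alpha subunit best known from the embryonic brain, had 171 and 175 CPM in neurons and 48.0 and 49.1 CPM in NPCs. Both neuron libraries stood well above both NPC libraries. Its log2 change was 1.83 ± 0.06 (edgeR adjusted p = 2.8e-14). Scn2a1, listed in current annotation as Scn2a, encodes a main alpha subunit of the axon of young excitatory neurons. It had 89.5 and 91.1 CPM in neurons and 16.03 and 18.7 CPM in NPCs. The groups did not overlap, and its change of 2.38 ± 0.07 (edgeR adjusted p = 3.6e-14) was the highest of the alpha subunits. Scn1a, the alpha subunit known for its role in inhibitory interneurons of the mature brain, had 37.0 and 35.8 CPM in neurons and 10.2 and 11.5 CPM in NPCs, a change of 1.74 ± 0.08. Scn9a, known from sensory neurons, was scarce at 4.16 and 4.57 CPM in neurons and 1.41 and 1.42 CPM in NPCs, with a change of 1.62 ± 0.18. These 3 genes and Scn3a lie near each other on mouse chromosome 2, together with Scn7a, which went the other way.

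Scn8a, the alpha subunit of mature axon initial segments and nodes, changed least among the alpha subunits that rose. It had 41.8 and 48.3 CPM in neurons and 28.8 and 28.8 CPM in NPCs, a log2 change of 0.65 ± 0.07. Its share of the family therefore differed between the groups. Per kilobase of merged exons, Scn8a made up 9.77% and 11.0% of the alpha subunit level in neurons and 21.9% and 20.7% in NPCs. Scn2a1 made up 25.9% and 25.6% in neurons and 15.1% and 16.6% in NPCs. Scn3a was the largest component in every library. It gave 49.8% (exact 95% binomial interval 49.0 to 50.5) and 49.2% (48.5 to 49.97) of the alpha subunit counts in the neuron libraries and 44.7% (43.5 to 46.0) and 43.4% (42.2 to 44.6) in the NPC libraries. The intervals cover counting error only, and 2 libraries against 2 cannot pass an exact permutation test, for which the smallest two-sided p is 0.333.

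The promoter windows of 2 of the genes that rose together are shown, since they lie on 1 chromosome and both rose in neurons. They are the 250 bases before and 50 bases after an annotated start, 5′ to 3′ on the gene's strand, from RefSeq (GRCm38.p6, not the build of the count table). The Scn2a window lies at chr2:65668436-65668735 on the + strand and the Scn1a window at chr2:66440788-66441087 on the - strand. Capitals mark a searched motif on either strand.
Scn2a: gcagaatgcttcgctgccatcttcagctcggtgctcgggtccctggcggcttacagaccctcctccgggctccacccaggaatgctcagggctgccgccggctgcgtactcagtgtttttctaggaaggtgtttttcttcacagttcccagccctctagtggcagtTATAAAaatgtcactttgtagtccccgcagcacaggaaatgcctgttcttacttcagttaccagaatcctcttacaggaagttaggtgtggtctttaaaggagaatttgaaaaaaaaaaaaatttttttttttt
Scn1a: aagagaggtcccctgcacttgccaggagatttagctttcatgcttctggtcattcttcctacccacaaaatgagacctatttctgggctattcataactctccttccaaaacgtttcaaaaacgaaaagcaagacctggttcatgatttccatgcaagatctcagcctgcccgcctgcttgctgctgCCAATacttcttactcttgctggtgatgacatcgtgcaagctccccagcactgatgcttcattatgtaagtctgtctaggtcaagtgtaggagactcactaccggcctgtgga
Motifs were searched on both strands. They were the cyclic AMP response element TGACGTCA, the GC box core GGGCGG, the CCAAT box, the TATA box form TATAAA, the E-box forms CAGCTG and also CATCTG, and TTCAGCACC, a part of the element that the repressor REST binds. The Scn2a window held 1 TATAAA, a motif in 13.6% of all 32851 windows of the table, and the Scn1a window held 1 CCAAT, found in 37.4%. They held 9 and 5 CpG dinucleotides, where the median of all windows was 7. No window of a channel gene held TTCAGCACC, which was in 0.371% of all windows and says only that these letters are not in these windows. Windows were found for 60 of the 76 genes, with 79 windows in all, and matches of different motifs did not overlap in the windows printed here.

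Scn7a, a sodium sensor of glia and other cells, had 0 and 0 counts in neurons and 12 and 19 counts in NPCs. With a floor of 3 counts over both neuron libraries, it was at least 8.85-fold lower in neurons. The median of the family is 1.14 also with Scn7a at that bound. Scn11a, a sensory neuron gene, had 0.307 and 0.271 CPM in neurons and 0.365 and 0.637 CPM in NPCs, a change of -0.79 ± 0.44 (edgeR adjusted p = 0.11) that passed with library size as the only scaling (-0.999). Endothelial and mural markers and most oligodendrocyte precursor markers were lower in neurons in the same libraries, at the levels given above. So were markers of radial glia, intermediate progenitors, microglia and erythroid cells. The part of these cells in the Scn7a change was not tested.

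The sodium channel beta subunit genes Scn3b and Scn2b were higher in neurons. Scn3b, whose product speeds or slows channel gating depending on its partner, had 90.1 and 103 CPM in neurons and 15.6 and 17.4 CPM in NPCs. Its log2 change of 2.55 ± 0.08 (edgeR adjusted p = 3.3e-14) was the highest of all 63 channel genes. Scn2b, which is linked to alpha subunits by a disulfide bond, had 4.77 and 4.09 CPM in neurons and 1.49 and 2.04 CPM in NPCs, a change of 1.32 ± 0.19. The groups did not overlap for either gene. Scn4b had at most 2 counts in a library and was not tested. Per kilobase, Scn3b was at 16.5 and 18.8 CPM per kb in neurons, above the 13.8 and 14.0 CPM per kb of Scn3a, while in NPCs it was at 2.86 and 3.19 CPM per kb, below the 3.85 and 3.94 CPM per kb of Scn3a.

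Nalcn encodes the sodium leak channel, a relative of the voltage-gated channels that holds resting potentials more depolarized. It had 2.58 and 2.79 CPM in neurons and 3.06 and 3.99 CPM in NPCs. Although both neuron libraries were below both NPC libraries, its log2 change of -0.39 ± 0.18 did not pass (edgeR adjusted p = 0.059). It passed without NPC replicate 1 (-0.57), without neuron replicate 2 (-0.44), with upper-quartile factors (-0.49) and with library size only (-0.60). Its partners in the channel complex went their own way. Unc79 had 47.1 and 51.4 CPM in neurons and 15.4 and 14.1 CPM in NPCs, and Fam155a had 12.1 and 12.6 CPM in neurons and 3.27 and 3.44 CPM in NPCs. Unc80 did not pass, at 2.52 and 2.25 CPM in neurons and 2.57 and 2.58 CPM in NPCs.

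Of 11 measured partners and anchors of sodium channels, 8 were higher in neurons, 1 was lower and 2 did not pass, with a median log2 change of 1.01. Calls over all genes tested were 35.8% higher and 36.9% lower. Ank3, which encodes the ankyrin that gathers sodium channels at the axon initial segment, had 296 and 291 CPM in neurons and 82.1 and 80.8 CPM in NPCs, a change of 1.85 ± 0.05. Fgf14, an intracellular modulator of sodium channels, had 29.5 and 25.7 CPM in neurons and 4.32 and 4.57 CPM in NPCs, a change of 2.63 ± 0.10.

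**Figure D3:**
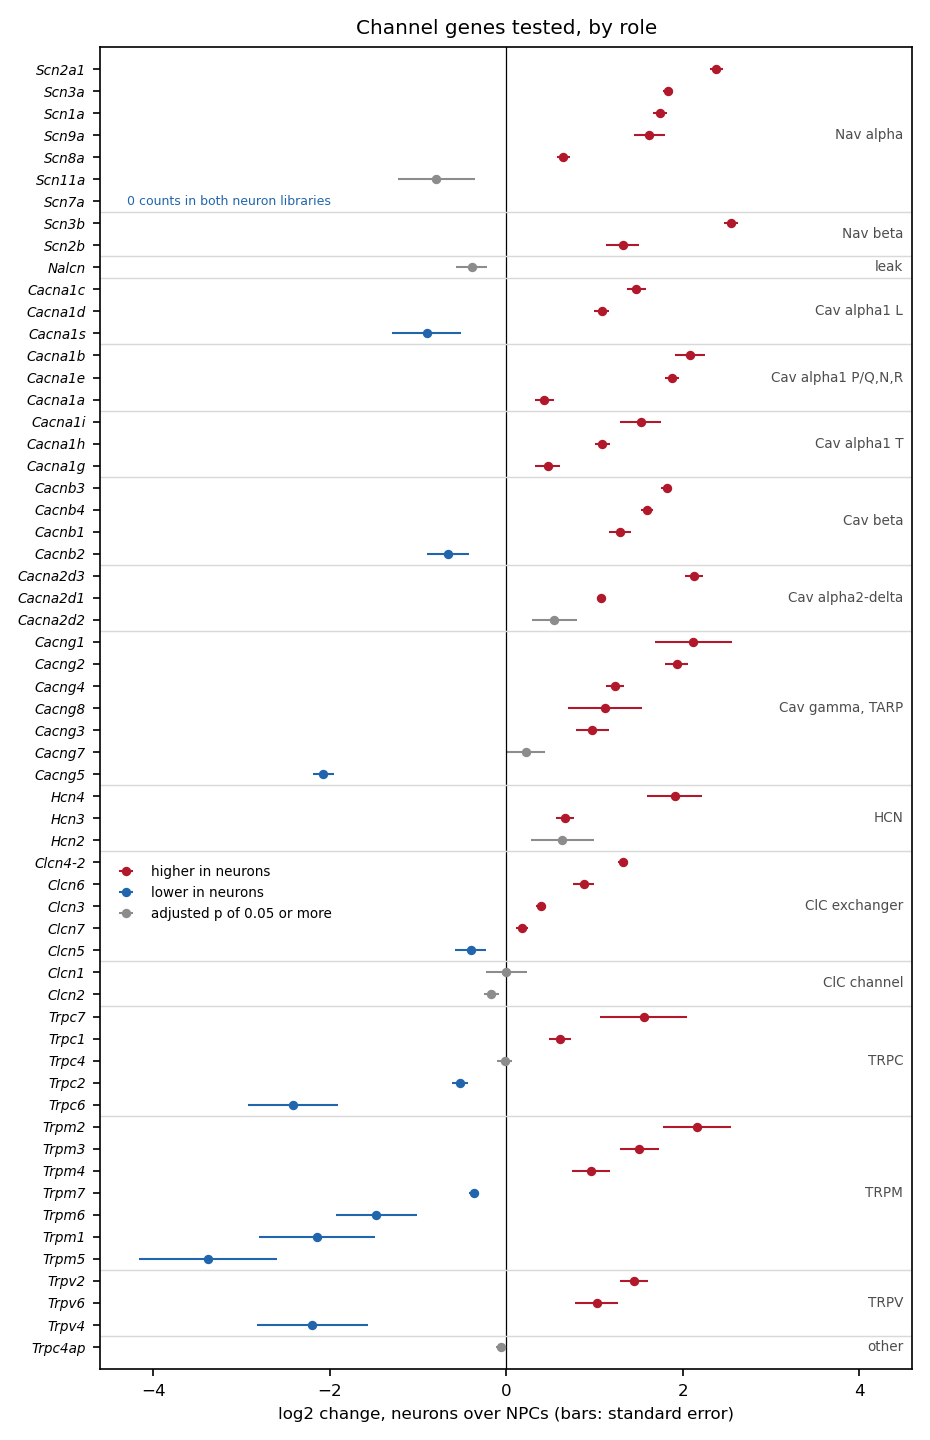
Log2 change of neurons over NPCs (horizontal axis) with its standard error for the tested channel genes that are reported here, grouped by role from top to bottom. Red points passed the adjusted p as higher in neurons, blue points as lower, and grey points did not pass. Scn7a is given in words because both of its neuron libraries were at 0. The pore and auxiliary subunits of sodium and calcium channels lie mostly to the right, and TRPC and TRPM genes lie on both sides.

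Calcium channel genes were 26 of the 76, and 23 were tested. In neurons, 18 were higher, 3 were lower (Cacng5, Cacnb2 and Cacna1s) and 2 did not pass (Cacna2d2 and Cacng7). Of all genes tested, 35.8% were called higher in neurons and 36.9% lower. The median log2 change of the calcium channel genes was 1.12, beside -0.02 for all genes tested. Of the 9 alpha1 pore subunits tested, 8 were higher in neurons. Their summed level was 139 and 149 CPM in neurons and 65.0 and 61.2 CPM in NPCs.

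Among L-type alpha1 subunits, which open at high voltage and couple activity to transcription, Cacna1d had 32.5 and 32.6 CPM in neurons and 16.6 and 14.1 CPM in NPCs. Its log2 change was 1.08 ± 0.09 (edgeR adjusted p = 5.6e-09). Cacna1c had 13.8 and 14.3 CPM in neurons and 4.79 and 5.33 CPM in NPCs, a change of 1.47 ± 0.11. The groups were apart for both genes. Cacna1s, the alpha1 subunit of skeletal muscle, was at 17 and 14 counts in neurons and 33 and 35 counts in NPCs. It shares 19.98% of its annotated exon bases with the opposite-strand gene Gm37759. It stood just inside the threshold (-0.90 ± 0.39, edgeR adjusted p = 0.049), and the call was lost under 8 of 10 alternatives that tested it, including the omission of any 1 library. Cacna1f, known from the retina, had at most 2 counts in a library.

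The P/Q-, N- and R-type alpha1 subunits serve transmitter release at synapses, and all 3 were higher in neurons. Cacna1e, of the R type, had 33.6 and 34.8 CPM in neurons and 9.08 and 9.52 CPM in NPCs, a log2 change of 1.88 ± 0.08 (edgeR adjusted p = 2.2e-12). Cacna1b, of the N type, had 6.94 and 9.32 CPM in neurons and 1.75 and 2.08 CPM in NPCs, a change of 2.08 ± 0.17. Cacna1a, of the P/Q type, changed less, with 13.6 and 15.9 CPM in neurons and 11.6 and 10.2 CPM in NPCs. Its change of 0.43 ± 0.11 (edgeR adjusted p = 0.0016) did not pass with library size as the only scaling (0.22, adjusted p = 0.067).

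T-type alpha1 subunits open at low voltage, and all 3 were higher in neurons. Cacna1h had 30.6 and 33.6 CPM in neurons and 15.7 and 14.5 CPM in NPCs, a log2 change of 1.09 ± 0.08. Cacna1i had 2.33 and 2.29 CPM in neurons and 0.799 and 0.804 CPM in NPCs, a change of 1.52 ± 0.24. Cacna1g had 5.10 and 6.18 CPM in neurons and 4.10 and 4.06 CPM in NPCs. Its change of 0.47 ± 0.14 (edgeR adjusted p = 0.0079) did not pass without neuron replicate 2 (0.33, adjusted p = 0.073) or with library size only (0.26, adjusted p = 0.11). T-type genes gave a smaller share of alpha1 counts in neurons, at 27.4% (exact 95% binomial interval 26.3 to 28.5) and 28.2% (27.2 to 29.2), than in NPCs, at 31.7% (30.2 to 33.2) and 31.6% (30.1 to 33.1). Within the T type, Cacna1g gave 3.67% and 4.14% of alpha1 counts in neurons and 6.30% and 6.63% in NPCs. Its share per kilobase was 4.85% and 5.40% in neurons and 7.66% and 8.15% in NPCs. Per kilobase, Cacna1h gave 30.2% and 30.5% in neurons and 30.4% and 30.2% in NPCs, Cacna1e gave 12.8% and 12.2% in neurons and 6.82% and 7.69% in NPCs, and Cacna1a gave 11.5% and 12.3% in neurons and 19.3% and 18.3% in NPCs.

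Calcium channel beta subunits bring alpha1 subunits to the membrane and set their gating. Cacnb3 had 104 and 105 CPM in neurons and 29.0 and 30.3 CPM in NPCs, a log2 change of 1.82 ± 0.06 (edgeR adjusted p = 8e-14). Cacnb4 had 84.1 and 83.6 CPM in neurons and 26.2 and 29.3 CPM in NPCs, a change of 1.59 ± 0.07. Duplicates of each group lay close together for both genes, and the groups were far apart. Cacnb4 shares 15.99% of its annotated exon bases with a transcript on the opposite strand, A430018G15Rik, whose reads could not be separated. Cacnb1 had 8.85 and 9.996 CPM in neurons and 3.84 and 3.87 CPM in NPCs. Cacnb2, known best from the heart, was the exception. It had 2.23 and 1.28 CPM in neurons and 2.94 and 2.60 CPM in NPCs, a change of -0.66 ± 0.23 (edgeR adjusted p = 0.018). That call was lost without neuron replicate 2 (-0.30, adjusted p = 0.24), without NPC replicate 1 (adjusted p = 0.071) and with DESeq2 (adjusted p = 0.063). Cacnb3 gave 52.2% (exact 95% binomial interval 51.2 to 53.2) and 52.6% (51.6 to 53.5) of beta subunit counts in neurons and 46.8% (45.1 to 48.4) and 45.9% (44.3 to 47.4) in NPCs.

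Alpha2-delta subunits raise the number of channels at the surface and are known as the targets of gabapentin drugs. Cacna2d1 had 223 and 221 CPM in neurons and 104 and 106 CPM in NPCs. Its log2 change was 1.08 ± 0.05 (edgeR adjusted p = 1e-11). Cacna2d3 had 19.5 and 19.3 CPM in neurons and 4.43 and 4.46 CPM in NPCs, a change of 2.13 ± 0.10 (edgeR adjusted p = 8.1e-12). Cacna2d1 was thus the more abundant gene and Cacna2d3 the one with the larger change. Cacna2d2 showed no such separation, with 2.31 and 4.38 CPM in neurons and 2.67 and 1.93 CPM in NPCs. Its neuron libraries differed from each other by more than the groups did, and its change of 0.55 ± 0.25 did not pass (edgeR adjusted p = 0.060). The value was 0.94 without neuron replicate 1 and 0.80 without NPC replicate 1, and both passed, while it was 0.018 without neuron replicate 2. It also passed with a replicate block (0.51, adjusted p = 0.017) and with no low-count filter (0.56, adjusted p = 0.038). Cacna2d4 had at most 5 counts in a library.

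The Cacna2d1 window, shown for the alpha2-delta gene with the most counts, lies at chr5:15934441-15934740 on the + strand of GRCm38.p6 (RefSeq). Capitals mark GGGCGG on either strand.
Cacna2d1: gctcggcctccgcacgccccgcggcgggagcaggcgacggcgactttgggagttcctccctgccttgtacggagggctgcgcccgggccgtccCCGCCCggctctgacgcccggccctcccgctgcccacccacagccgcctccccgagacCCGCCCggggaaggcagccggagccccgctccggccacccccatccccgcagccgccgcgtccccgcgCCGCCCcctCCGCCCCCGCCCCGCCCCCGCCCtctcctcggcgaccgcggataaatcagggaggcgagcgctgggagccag
It held 7 GGGCGG matches, of which 1 neighbouring pair overlaps. GGGCGG is a motif that 35.7% of all windows hold at least once. The window had 42 CpG dinucleotides, against 5 and 9 in the windows of Scn1a and Scn2a above.

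The gamma family divided. Most of its members are auxiliary proteins of AMPA-type glutamate receptors (TARPs), and some are calcium channel subunits of muscle. Of 7 tested, 5 were higher in neurons, Cacng5 was lower and Cacng7 did not pass. Cacng4, a TARP of the developing brain, had 22.8 and 27.5 CPM in neurons and 10.02 and 11.3 CPM in NPCs, a log2 change of 1.24 ± 0.10 (edgeR adjusted p = 1e-08). Cacng2, which encodes stargazin, had 9.89 and 11.3 CPM in neurons and 2.92 and 2.63 CPM in NPCs, a change of 1.93 ± 0.13. Cacng5, a TARP of another subtype, went the opposite way, with 7.62 and 5.39 CPM in neurons and 26.5 and 28.1 CPM in NPCs. Its change of -2.07 ± 0.12 (edgeR adjusted p = 9.9e-11) was the largest fall among channel genes that averaged 5 CPM or more. Cacng5, Cacng4 and Cacng1 are neighbours on chromosome 11 with no other protein-coding gene between them. Cacng1, a subunit of the skeletal muscle channel, was rare at 32 and 36 counts in neurons and 10 and 8 counts in NPCs.

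Cacng5 fell while its neighbour Cacng4 and other members such as Cacng2 rose. The family's summed level thus differed little, at 46.9 and 51.9 CPM in neurons and 43.9 and 45.6 CPM in NPCs. Per kilobase, Cacng4 was at 6.38 and 7.69 CPM per kb in neurons and 2.80 and 3.16 CPM per kb in NPCs. Cacng5 was at 1.99 and 1.40 CPM per kb in neurons and 6.91 and 7.33 CPM per kb in NPCs, so the more abundant of this pair was Cacng4 in neurons and Cacng5 in NPCs. Cacng3 had 3.73 and 4.44 CPM in neurons and 2.38 and 1.78 CPM in NPCs. Cacng8 was called at 25 and 35 counts in neurons and 20 and 12 counts in NPCs (1.12 ± 0.42, edgeR adjusted p = 0.025). It lost the call without either replicate 2 (adjusted p = 0.22 without that of NPCs and 0.17 without that of neurons), with library size only (0.060) and with DESeq2 (0.12). Cacng7 had 1.66 and 1.88 CPM in neurons and 1.60 and 1.44 CPM in NPCs. Cacng6, known from muscle, had 2 and 1 counts in neurons and 0 and 0 counts in NPCs and was not tested.

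A Cacng5 window is shown because its change ran against the family. It lies at chr11:107915006-107915305 on the - strand of GRCm38.p6 (RefSeq), and capitals mark GGGCGG and CCAAT on either strand.
Cacng5: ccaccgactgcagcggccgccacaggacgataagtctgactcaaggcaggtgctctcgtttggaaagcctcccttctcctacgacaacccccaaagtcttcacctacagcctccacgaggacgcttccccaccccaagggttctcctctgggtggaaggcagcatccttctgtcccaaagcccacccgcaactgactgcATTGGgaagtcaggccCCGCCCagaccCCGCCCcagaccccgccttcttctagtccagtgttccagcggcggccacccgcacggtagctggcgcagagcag
This window held 2 GGGCGG motifs and 1 CCAAT. Some markers of other cells moved in the same direction as Cacng5, with endothelial markers summed to 10.3 to 10.6 CPM in neurons and 294 to 302 CPM in NPCs, and radial glia markers to 588 to 610 CPM in neurons and 2922 to 2947 CPM in NPCs. Every listed marker of intermediate progenitors was lower in neurons too. So were the tested markers of pericytes and mural cells, microglia and erythroid cells, and most of those of oligodendrocyte precursors. Which of these cells carried the Cacng5 counts was not tested.

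Genes around calcium channels and calcium handling were counted from lists, to be read beside the 35.8% higher and 36.9% lower of all genes tested. Of 14 tested regulators of voltage-gated calcium channels, 10 were higher in neurons, 2 were lower and 2 did not pass (median log2 change 0.61). Cabp1, which encodes a calcium-binding modulator, had a change of 2.15 ± 0.13. Calm2, a calmodulin gene, had one of 0.86 ± 0.06. The members that were lower were Gem (-2.36 ± 0.10) and Rrad (-3.09 ± 0.40), small GTPase genes whose products inhibit these channels. Rem2, of the same GTPase family, was higher, with 12.7 and 10.8 CPM in neurons and 5.87 and 5.63 CPM in NPCs (1.03 ± 0.12). All 7 genes of calcium extrusion were higher in neurons (median 1.29). Slc8a1, a sodium-calcium exchanger gene, had 202 and 224 CPM in neurons and 47.0 and 47.8 CPM in NPCs. Atp2b1, a calcium pump gene, had 254 and 253 CPM in neurons and 118 and 114 CPM in NPCs. Of 13 genes of calcium stores and store-operated entry, 6 were higher and 6 lower in neurons (median 0.05). The higher ones included Itpr1 (1.66 ± 0.06) and Ryr3 (2.15 ± 0.08), and the lower ones Itpr2 (-3.99 ± 0.24) and Atp2a3 (-4.88 ± 0.59), which encode store channels and a store pump.

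HCN channels carry a current that paces rhythmic firing. Hcn3 was the most abundant, with 15.3 and 17.8 CPM in neurons and 10.3 and 10.6 CPM in NPCs, a log2 change of 0.67 ± 0.10 (edgeR adjusted p = 1.3e-05). It shares 17.1% of its annotated exon bases with the opposite-strand gene Pklr. Hcn4, known from the cardiac pacemaker, had 1.49 and 2.48 CPM in neurons and 0.538 and 0.519 CPM in NPCs, a change of 1.91 ± 0.31. Hcn2 did not pass at 38 and 49 counts in neurons and 42 and 23 counts in NPCs (0.64 ± 0.36, edgeR adjusted p = 0.12), but passed without NPC replicate 1 (1.16, adjusted p = 0.036).

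**Figure D4:**
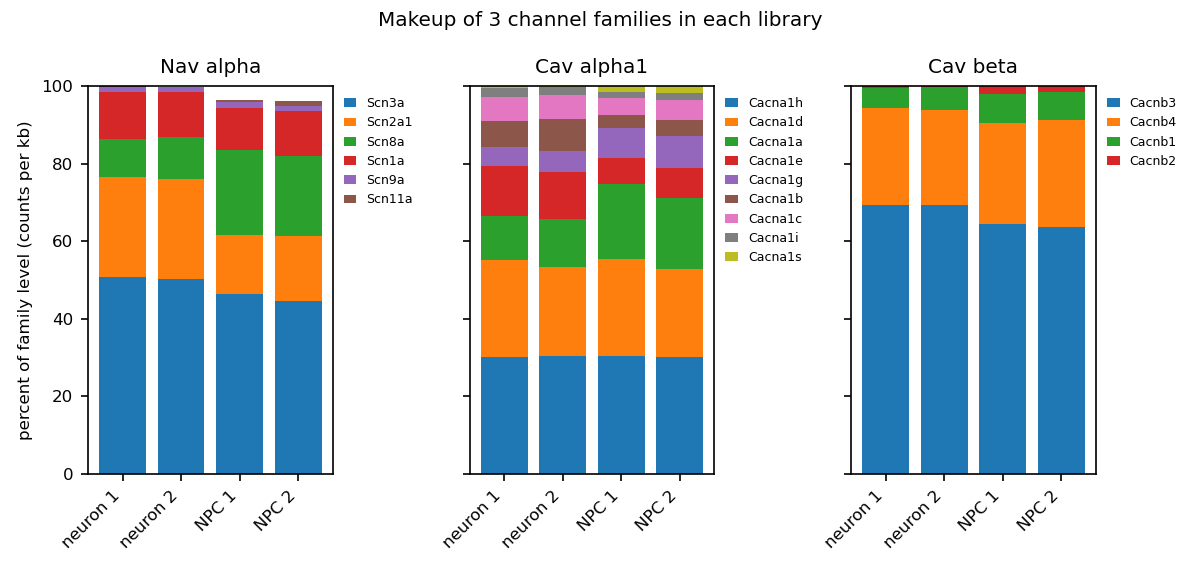
Makeup of the sodium channel alpha, calcium channel alpha1 and calcium channel beta families in each library (vertical axis, percent of the family level in counts per kilobase of merged exons; neuron libraries at the left of each panel). Genes under 0.5% on average and genes not reported here are not drawn, so a bar can end below 100. Scn2a1 takes a larger part and Scn8a a smaller part of the alpha level in neurons, and Cacna1h takes about the same part of the alpha1 level in all 4 libraries.

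Clcn4-2 had the most counts of the channel genes in neurons, and Clcn3 had the most in NPCs. Clcn4-2, listed in current annotation as Clcn4 and encoding an endosomal chloride-proton exchanger, had 337 and 319.6 CPM in neurons and 128 and 134 CPM in NPCs. Its log2 change was 1.33 ± 0.06 (edgeR adjusted p = 1.4e-12), and 11.5% of its exon bases are shared with the antisense gene Gm45631. Clcn3, its close relative in endosomes and synaptic vesicles, had 237 and 228 CPM in neurons and 176 and 179 CPM in NPCs. The change of Clcn3 was 0.39 ± 0.05 (edgeR adjusted p = 4.5e-06). Per kilobase Clcn4-2 was at 39.3 and 37.3 CPM per kb in neurons, the highest level of the 76 genes there, and at 14.9 and 15.6 CPM per kb in NPCs, where Trpc4ap was above it at 18.1 and 17.8 CPM per kb.

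Clcn6, an exchanger of late endosomes, had 9.30 and 10.7 CPM in neurons and 5.56 and 5.33 CPM in NPCs, a log2 change of 0.88 ± 0.12. Clcn7, the lysosomal exchanger, had 34.2 and 35.0 CPM in neurons and 30.5 and 30.7 CPM in NPCs. Its small change of 0.18 ± 0.07 (edgeR adjusted p = 0.025) was -0.029 when library size alone set the scale. It also lost its call with upper-quartile factors (0.08), with the 5 CPM filter (0.14), with DESeq2 (0.19) and without either NPC replicate (0.17 without replicate 1 and 0.18 without replicate 2). Ostm1, which encodes the partner that Clcn7 needs in lysosomes, had a change of 0.20 ± 0.06. Clcn5, an endosomal exchanger known from the kidney, was lower in neurons, with 2.83 and 3.99 CPM in neurons and 4.19 and 4.84 CPM in NPCs (-0.40 ± 0.17, edgeR adjusted p = 0.046). That call was lost without neuron replicate 1 (-0.17, adjusted p = 0.40), without NPC replicate 2 (-0.29, adjusted p = 0.24) and with DESeq2 (adjusted p = 0.13).

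Neither surface chloride channel described here gave a call. Clcn2, a chloride channel opened by hyperpolarization, had 14.5 and 14.0 CPM in neurons and 15.6 and 16.4 CPM in NPCs. Its log2 change of -0.17 ± 0.09 did not pass (edgeR adjusted p = 0.096). It passed with upper-quartile factors (-0.27), with library size only (-0.38) and with the 5 CPM filter (-0.21). Clcn1, the chloride channel of skeletal muscle, had 1.68 and 2.05 CPM in neurons and 2.22 and 1.52 CPM in NPCs, and the libraries overlapped. Genes of the glial membrane complex that binds the Clcn2 channel were lower in neurons, Mlc1 (-3.00 ± 0.08) and Hepacam (-4.17 ± 0.36).

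Windows of Clcn4 and Clcn3 are shown because they were the channel gene windows with TGACGTCA, the cyclic AMP response element. They lie at chr7:7299508-7299807 and chr8:60983262-60983561, both on the - strand of GRCm38.p6 (RefSeq). Capitals mark TGACGTCA, GGGCGG and CCAAT on either strand.
Clcn4: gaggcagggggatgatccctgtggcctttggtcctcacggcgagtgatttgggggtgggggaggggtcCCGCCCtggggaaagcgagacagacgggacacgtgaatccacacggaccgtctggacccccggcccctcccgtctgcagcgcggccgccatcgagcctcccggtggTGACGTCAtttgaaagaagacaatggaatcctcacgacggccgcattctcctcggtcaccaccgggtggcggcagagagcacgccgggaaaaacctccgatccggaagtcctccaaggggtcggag
Clcn3: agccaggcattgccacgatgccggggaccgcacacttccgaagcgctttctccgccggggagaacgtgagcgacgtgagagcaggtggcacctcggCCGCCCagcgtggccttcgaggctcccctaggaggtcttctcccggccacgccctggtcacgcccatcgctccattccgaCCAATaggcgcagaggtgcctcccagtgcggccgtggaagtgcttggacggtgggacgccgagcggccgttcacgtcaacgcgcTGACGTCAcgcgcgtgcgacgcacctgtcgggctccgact
TGACGTCA was in 2 of 79 windows of channel genes (2.53%) and in 588 of 32851 windows of all genes (1.79%). The windows held 27 and 38 CpG dinucleotides. A match is a description of the letters and not evidence of binding, and the 6 windows printed were chosen after their motifs and the gene changes were seen.

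Trp genes were called in both directions. Among TRPC, TRPM and TRPV genes with Trpc4ap included, 17 of 22 were tested. Of these, 7 were higher in neurons, 8 were lower and 2 did not pass, beside 35.8% higher and 36.9% lower of all genes tested. Most of the tested Trp genes averaged under 5 CPM, where 21.1% of all genes were called higher and 44.1% lower. The median log2 change of the Trp genes was -0.06, close to the -0.02 of all genes tested. The difference between Trp and other channel genes was not tested.

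TRPC channels open after receptors activate phospholipase C. Trpc2, a channel of vomeronasal sensory cells, had 11.0 and 10.5 CPM in neurons and 14.7 and 16.1 CPM in NPCs (-0.52 ± 0.10). It shares 97.5% of its exon bases with the longer gene Xntrpc on the same strand, so its counts cannot be assigned to the channel. Trpc1 was higher in neurons, with 7.68 and 8.37 CPM in neurons and 4.93 and 5.58 CPM in NPCs (0.61 ± 0.12). Trpc4 had 15.7 and 15.98 CPM in neurons and 15.8 and 16.3 CPM in NPCs, and the libraries of the groups overlapped (-0.02 ± 0.09, edgeR adjusted p = 0.85). It passed with library size as the only scaling, at -0.23. Trpc6, known from smooth muscle and kidney, had 8 and 3 counts in neurons and 35 and 35 counts in NPCs (-2.42 ± 0.51), and its change was -3.30 without neuron replicate 1. Trpc7 had 17 and 29 counts in neurons and 11 and 7 counts in NPCs (1.56 ± 0.50, edgeR adjusted p = 0.010). The Trpc7 call was lost without either replicate 2 (adjusted p = 0.096 without that of NPCs and 0.15 without that of neurons) and with DESeq2 (0.072). Trpc5 had at most 6 counts in a library.

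Trpm7, a channel joined to a kinase and needed for magnesium uptake in dividing cells, was the Trp channel with the most counts. It had 109 and 109.9 CPM in neurons and 136 and 145 CPM in NPCs, and the groups did not overlap. Its log2 change was -0.36 ± 0.05 (edgeR adjusted p = 1.6e-05). Its relative Trpm6 had 20 and 6 counts in neurons and 39 and 46 counts in NPCs (-1.47 ± 0.46), a call that was lost without neuron replicate 2 (-0.81, adjusted p = 0.14), while the change was -2.61 without neuron replicate 1. Trpm2 and Trpm4 are channels opened by ADP-ribose and by calcium. Trpm2 had 46 and 66 counts in neurons and 10 and 19 counts in NPCs (2.16 ± 0.39), and Trpm4 had 2.35 and 3.04 CPM in neurons and 1.48 and 1.31 CPM in NPCs (0.96 ± 0.21). Trpm3, a heat-sensitive channel, had 2.60 and 2.56 CPM in neurons and 0.834 and 0.972 CPM in NPCs (1.51 ± 0.22). Trpm5, a channel of taste cells, had 0 and 3 counts in neurons and 18 and 21 counts in NPCs, a neuron to NPC ratio of 0.0898 (95% counting interval 0.0178 to 0.282). Without neuron replicate 1 its log2 change was -2.46, and without neuron replicate 2 its neuron count was 0. Trpm1, known from the retina, had 4 and 2 counts in neurons and 14 and 18 counts in NPCs (-2.15 ± 0.66, edgeR adjusted p = 0.0079). Its change was -2.74 without neuron replicate 1. It lost its call without either replicate 2 (adjusted p = 0.059 without that of NPCs and 0.097 without that of neurons) and with DESeq2 (0.076). Trpm8, the cold receptor of sensory neurons, had at most 2 counts in a library.

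TRPV channels were rare. Trpv2 had 6.37 and 7.17 CPM in neurons and 2.78 and 2.20 CPM in NPCs, a log2 change of 1.45 ± 0.16 (edgeR adjusted p = 3.3e-07), and is known from developing sensory and motor axons. Trpv6, a calcium channel of epithelia, had 1.95 and 1.84 CPM in neurons and 0.938 and 0.922 CPM in NPCs (1.02 ± 0.24). Trpv4, an osmosensitive channel known from endothelium and other tissues, had 4 and 4 counts in neurons and 13 and 31 counts in NPCs (-2.20 ± 0.63, edgeR adjusted p = 0.0050). The 2 NPC libraries differed for Trpv4, and without NPC replicate 2 the change was -1.48 with an adjusted p of 0.14. Trpv1, Trpv3 and Trpv5 were at 0 counts in every library. Some rare Trp genes and several marker lists were both lower in neurons. Endothelial and mural markers were at 10.3 to 10.6 and 8.06 to 8.52 CPM in neurons and 294 to 302 and 228 to 233 CPM in NPCs. Markers of radial glia, intermediate progenitors, microglia and erythroid cells, and most of those of oligodendrocyte precursors, were lower in neurons as well. The part of these cells in the Trp changes was not tested.

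Trpc4ap, the adaptor gene caught by the symbol rule, had 146 and 155 CPM in neurons and 159 and 156 CPM in NPCs. Its log2 change of -0.06 ± 0.05 did not pass (edgeR adjusted p = 0.30), but it passed with upper-quartile factors (-0.16) and with library size only (-0.27). Of 7 tested genes for other Trp-related and endolysosomal cation channels, 2 were higher in neurons, 4 were lower and 1 did not pass (median -0.64). The shares of all genes tested were 35.8% higher and 36.9% lower. Pkd2, a Trp-like channel of the primary cilium, had 30.1 and 29.9 CPM in neurons and 53.2 and 57.6 CPM in NPCs. The lysosomal channel gene Mcoln1 had 31.3 and 30.9 CPM in neurons and 24.2 and 23.6 CPM in NPCs. The other tested endolysosomal channel genes were lower in neurons, Tpcn1 (-0.64 ± 0.15), Tpcn2 (-1.37 ± 0.16) and Mcoln3 (-2.97 ± 0.49).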

How the data were processed

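RNA-seq counts were analysed from 4 libraries of cells sorted from the mouse cortex at embryonic day 15.5, 2 of neurons and 2 of NPCs, grouped by their titles. The authors deposited 1 table of estimated counts per gene, not scaled between libraries. They are not whole numbers. Per the submitters' processing notes, the tools included TopHat 1.2.0, SAMtools 0.1.18 and CASAVA 1.9, with mm9 as the build. How reads were counted (tool, gene models, strand, multiple alignments) is not given in the sources used here, so overlapping genes are uncertain. By GENCODE M21 (GRCm38), 23 of the 76 genes share exon bases with another gene, 6 of them at least 10%.

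Counts were rounded to whole numbers. filterByExpr left 15292 of 23240 rows. Neurons were compared with NPCs by edgeR 4.0.16 (quasi-likelihood F test, two-sided, TMM factors of 0.928 and 0.933 in neurons and 1.08 and 1.07 in NPCs) in R 4.3.3, and adjusted p-values (Benjamini-Hochberg) under 0.05 were called. Standard errors were taken as the size of the change over the root of the F statistic. The test was also run on simulated counts with few changed genes, balanced in direction, and the same dispersion for all genes. That simulation does not bear on the scaling or on the unequal scatter of the duplicates here. Levels per kilobase divide CPM by the merged exon length of GENCODE M21, which overstates the length of genes with many isoforms. Depth was 52611841 to 55615151 counts per library. Duplicates differed by more than sampling noise, with a chi-square per gene of 14.3 for neurons and 4.71 for NPCs. Intervals and floors cover counting error only.

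Genes given with values in each library were set by a rule: in each role the 2 with the highest mean CPM and up to 2 with the smallest p in each direction, genes of at least 5 CPM that did not pass, and genes nearest the threshold. Others (such as Cacnb1, Cacng1, Trpm4 and Trpc7) were added after their values were seen. The channel genes, roles and lists were chosen with earlier results of these data known. Alternatives were other scalings and filters, limma-voom (limma 3.58.1), DESeq2 1.42.0, a replicate block and the omission of each library. Sptbn4, Fam155b and Map2 were not analysed here. Results for some genes that entered the counts and sums are not reported here.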

Additional observations from a re-analysis of the deposited data

How the results depend on the processing

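Of the 54 channel genes called, 42 kept direction and call under each of the 11 alternatives that tested them, and lost calls are given beside the genes named. The count of channel genes called was 54 and ranged from 46 to 54 when 1 library was left out, with 36 to 41 higher and 9 to 13 lower in neurons. The low count of 9 lower genes was without NPC replicate 2. Over all genes, 9773 to 11252 were called without 1 library. With the 5 CPM filter, which tested 32 channel genes, 29 were called, 24 higher and 5 lower.

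The duplicate numbers were not treated as pairs, because the labels give no shared litter, batch or day for a duplicate number. Deviations of same-numbered libraries correlated at 0.0511 over 10992 genes. A replicate block gave 54 channel genes called, 41 higher and 13 lower, and 11206 of all genes. It lost Cacna1s and added Cacna2d2.

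Changes of sign were seen in 3 genes near 0. Clcn7 was at -0.029 with library size only. Trpc4 lay from -0.040 to 0.0058 without 1 library. Clcn1, at -0.0018 as reported, was at 0.0072 with no low-count filter, 0.0094 with the replicate block, 0.021 with limma-voom, 0.0047 with DESeq2 and from -0.25 to 0.29 without 1 library. The causes were not tested.

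Shares were also computed per kilobase of merged exons, an alternative chosen after seeing the data, because the gene lengths in the RefSeq table include introns and were not used as planned. In neurons and NPCs they were 50.5% and 45.5% for Scn3a, 37.6% and 39.8% for T-type genes, and 69.3% and 64.0% for Cacnb3, and each kept its order between the groups. Precision was lower for the channel genes under 5 CPM, whose median standard error was 0.27.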
